A study of Mus musculus with 16 samples.

Results

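Collagen genes were followed in regenerating mouse skeletal muscle. They were taken as every gene row whose symbol reads Col, a number, a and a second number, which gave 44 of 52997 rows. By collagen type, 11 encode fibrillar chains, 8 encode basement membrane chains (types IV, XV and XVIII) and 25 encode the other types. The rule reads gene symbols and no expression value.

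Collagens are secreted proteins in which 3 chains wind into a triple helix. Fibrillar collagens pack into the cable-like fibrils of connective tissue, type IV collagen forms the sheet-like network of the basement membrane around each muscle fibre and each capillary, and type VI collagen forms the beaded filaments that link basement membrane and fibrils. After muscle injury, fibroblasts and fibro-adipogenic progenitors lay down a temporary collagen scaffold while macrophages clear debris and satellite cells build new fibres.

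RNA was sequenced from whole skeletal muscle collected 8 days after injury with cardiotoxin (Ctx), a venom toxin that kills muscle fibres. The Tg group was mTreg24 TCR-tg+ mice, which carry a transgenic T cell receptor (TCR) derived from a muscle regulatory T cell (Treg), and the WT group was mTreg24 TCR-tg- mice, with 3 libraries each. All were B6 mice aged 6 to 8 weeks and all muscles were injured. As background, 10 libraries of sorted Tregs from Foxp3-GFP mice of the same ages were used, 2 per group: Tg muscle, WT muscle, injured Tg spleen and WT spleen, each 3 days after injury, and uninjured Tg spleen. Tg Tregs were sorted as Vβ8+ cells and WT Tregs as total Tregs, so the gate differed between genotypes. The transgene stands for a single receptor, the promoter that drives it is not given in the sources used here, and no uninjured whole muscle was analysed here. The labels do not say whether libraries of a group came from separate mice, so p-values measure only the spread between these libraries, which may be technical.

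Whole muscle libraries held 6082363, 6499968 and 7075420 counts in Tg and 6911679, 6782174 and 5095999 counts in WT, and Treg libraries held between 1986700 and 9116800. Levels are CPM, read counts scaled by the library total, and the 20 most abundant genes took between 36.8% and 39.5% of each whole muscle library. Libraries of a group differed far beyond counting noise, with a chi-square per degree of freedom of 8.53 in Tg and 9.23 in WT whole muscle. The transgene matched the labels: Trav9-4, an alpha chain segment, had 146, 216 and 149 counts in Tg whole muscle and 0, 1 and 0 in WT whole muscle. Trbv13-2, a Vβ8 segment, had 29, 25 and 29 counts in Tg and 0 in each of the 3 WT libraries. WT whole muscle replicate 1 stood apart in what follows, and values without it are given where they matter.

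Collagen transcripts made up 0.727%, 0.513% and 0.464% of the Tg whole muscle libraries and 0.265%, 0.549% and 0.464% of the WT libraries. The mean share was 0.568% ± 0.140 in Tg and 0.426% ± 0.146 in WT (SD, n = 3 each). The groups overlapped: Tg replicate 1 was the highest, WT replicate 1 was the lowest by a wide margin, and the other 4 libraries lay close together. In bulk tissue, fewer cells of a type and less RNA per cell cannot be told apart.

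None of the collagen genes passed the test between genotypes. Of the 44 genes, 35 had enough counts to be tested (11 fibrillar, 6 basement membrane and 18 other), and 0 of 35 had an adjusted p under 0.05 by edgeR's quasi-likelihood test, against 4 of 12377 genes (0.0323%), all 4 of them TCR genes. DESeq2 and limma-voom also called 0 of the 35. At an unadjusted p under 0.05 there were 4 collagen genes, all higher in Tg, against 4.83% of all genes tested and 2.67% of them in that direction. The log2 fold change of Tg over WT was above 0 for 26 of 35 collagen genes (74.3%), against 49.4% of all genes. Its median was 0.24 over the 35 collagen genes and -0.004 over all genes.

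The size of this lean depended on single libraries. WT replicate 1 held the lowest value for 21 of the 35 tested collagen genes (60.0%), against 24.4% of all genes tested, and Tg replicate 1 held the highest for 18 (51.4%), against 25.0%. The median log2 fold change over the tested collagen genes was 0.11 without WT replicate 1 (21 of 35 above 0) and 0.21 without Tg replicate 1 (21 of 36 above 0). It was 0.45 without WT replicate 2 (29 of 35 above 0). A call missed is not a sign of equal levels: the 95% interval lay inside a 2-fold change in either direction for 15 of the 35 genes, and reached beyond it for 20.

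**Figure D1:**
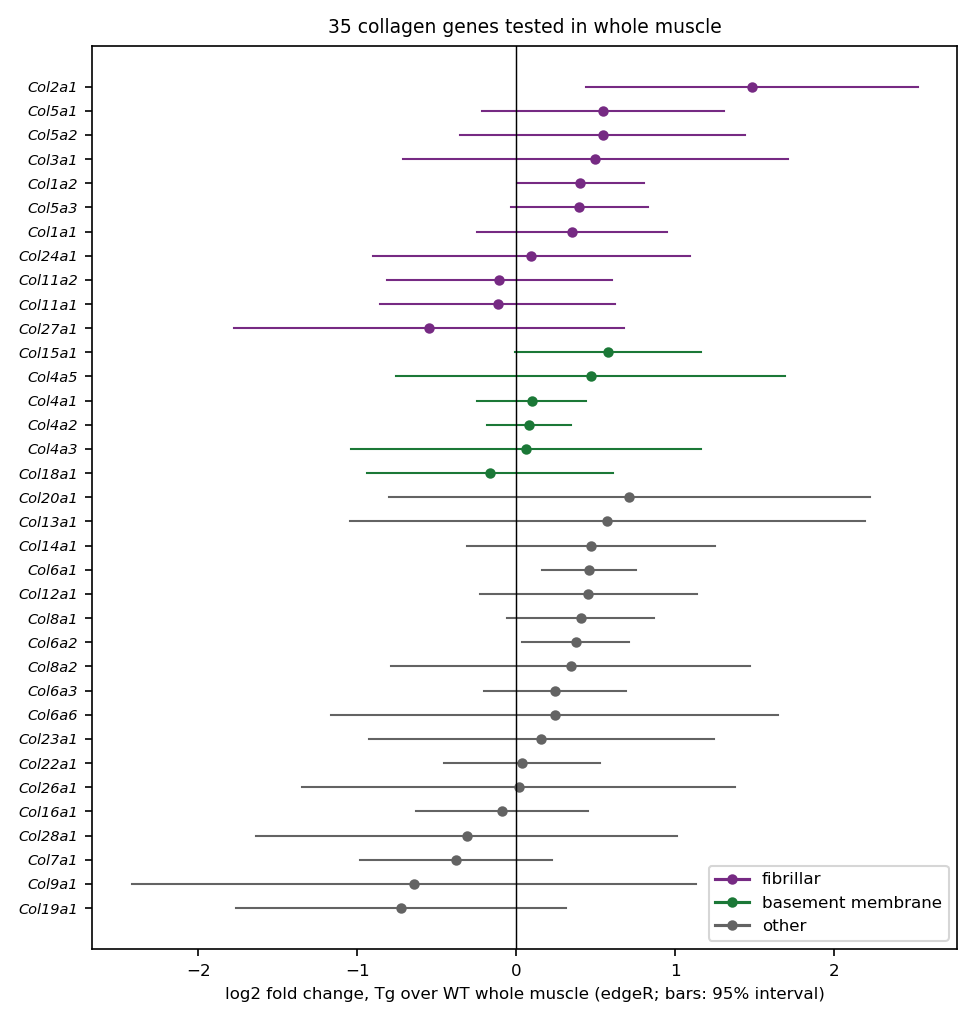
Log2 fold change of Tg over WT whole muscle (x axis) for the 35 tested collagen genes (rows, by group), with 95% intervals from edgeR as bars. Points lean to the right of 0 for 26 of 35 genes, and the intervals of 4 genes exclude 0 before adjustment.

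Fibrillar collagens dominated the collagen transcripts. They made up 79.6% ± 0.9 of collagen counts in Tg and 77.0% ± 3.7 in WT whole muscle, and types I and III alone made up 73.9% ± 0.6 and 71.6% ± 3.5. Per kilobase of transcript, the highest of all 44 genes over the 6 libraries was Col3a1 at 249 ± 99.9 CPM per kilobase, followed by Col1a2 at 202 ± 56.5 and Col1a1 at 199 ± 55.3 (SD, n = 6). The library values of these 3 overlapped, with Col3a1 above Col1a2 in 5 of the 6 libraries and Col1a2 above Col1a1 in 3. Col6a1, next in order at 50.6 ± 12.5 CPM per kilobase, was below Col1a1 without overlap of library values. No other pair of neighbours in the order of 44 separated in that way. Some overlapping neighbours still kept their order within all 6 libraries, such as Col6a1 above Col6a2. Both the leading gene and the lack of overlap between the third gene and Col6a1 depend on the transcript length used. With the union of all annotated exons the order was Col1a1 at 179 ± 49.9, Col3a1 at 141 ± 56.6, Col1a2 at 87.0 ± 24.3 and Col6a1 at 47.3 ± 11.7 CPM per kilobase. In that order Col1a2 (50.2 in WT replicate 1) overlapped Col6a1 (64.2 in Tg replicate 1). Within each of the 6 libraries Col1a2 was still above Col6a1, with either length.

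Promoter sequence from RefSeq (build GRCm38.p6, 250 bases before to 50 after the start, on the strand of the gene) is shown for both of the leading fibrillar genes that the table held, Col3a1 and Col1a2. Capitals mark matches, on either strand, to CCAAT or its complement ATTGG, to GGGCGG or CCGCCC, and to TATAAA or TTTATA.
Col3a1, chr1:45311288-45311587, plus strand: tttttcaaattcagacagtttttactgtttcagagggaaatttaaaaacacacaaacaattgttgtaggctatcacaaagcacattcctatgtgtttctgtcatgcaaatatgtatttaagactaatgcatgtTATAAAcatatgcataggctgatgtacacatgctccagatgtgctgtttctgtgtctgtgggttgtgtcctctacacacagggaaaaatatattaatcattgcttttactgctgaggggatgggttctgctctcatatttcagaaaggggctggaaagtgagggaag
Col1a2, chr6:4505368-4505667, plus strand: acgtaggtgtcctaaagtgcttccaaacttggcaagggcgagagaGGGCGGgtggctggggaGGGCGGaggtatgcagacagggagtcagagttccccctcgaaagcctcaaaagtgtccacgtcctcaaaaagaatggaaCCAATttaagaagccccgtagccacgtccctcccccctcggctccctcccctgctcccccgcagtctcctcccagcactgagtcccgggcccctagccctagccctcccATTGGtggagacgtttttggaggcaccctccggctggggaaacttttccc
The Col3a1 window held a TATAAA match and none of the others, with a GC content of 37.7%. The Col1a2 window held 2 CCAAT matches and 2 GGGCGG matches and none of TATAAA, with a GC content of 61.0%. It is set at the RefSeq start and lies inside the GENCODE gene, whose annotated start at 4504814 is upstream of it. Of the 44 genes, 35 had a window, 38 windows in all. CCAAT was in 34.2% of those 38 windows and in 37.4% of all 32851 windows of that length, GGGCGG in 60.5% and 35.7%, and TATAAA in 13.2% and 13.6%. These are letter matches and not measured sites.

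Col3a1 (chromosome 1, 45311538 to 45349706, GRCm38), the type III chain of the fine reticular fibres that come early in repair, had 2214, 1496 and 1185 CPM in Tg whole muscle and 559.5, 1670 and 1181 CPM in WT. Its log2 fold change was 0.50 ± 0.45 (SE; 95% interval -0.71 to 1.71; adjusted p = 0.994). Only Tg replicate 1 exceeded the highest WT library, and WT replicate 1 was less than every other library, so the groups overlapped. The value was 0.19 without WT replicate 1, 0.26 without Tg replicate 1 and 0.84 without WT replicate 2.

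Col1a1 (chromosome 11, 94936224 to 94953042), which encodes the more abundant chain of type I collagen, had 1624, 1201 and 1167 CPM in Tg and 602.7, 1252 and 1219 CPM in WT. Its partner Col1a2 (chromosome 6, 4504814 to 4541544) had 1569, 1111 and 1043 CPM in Tg and 624.2, 1126 and 1010 CPM in WT. For both chains Tg replicate 1 was highest, WT replicate 1 was lowest and the other 4 libraries were within a narrow band. The log2 fold change was 0.35 ± 0.25 for Col1a1 (95% interval -0.25 to 0.95) and 0.40 ± 0.18 for Col1a2 (95% interval 0.0025 to 0.80), with an adjusted p of 0.994 for each. Without WT replicate 1 they were 0.10 and 0.21, and without Tg replicate 1 they were 0.23 and 0.24.

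Type V collagen seeds type I fibrils and limits their width, and its chains had the same highest and lowest libraries as types I and III. Col5a1 had 120.5, 80.5 and 72.4 CPM in Tg and 30.5, 85.2 and 68.7 CPM in WT. Col5a2, whose gene lies tail to tail with Col3a1 at a distance of 24614 bases, had 233.8, 142.6 and 112.5 CPM in Tg and 63.2, 158.5 and 106.9 CPM in WT. Col5a3, the third type V chain, had 48.5, 41.5 and 31.0 CPM in Tg and 23.9, 37.9 and 28.3 CPM in WT. In all 3 genes the lowest library was WT replicate 1 and the highest Tg replicate 1, and WT replicate 2 lay above at least 1 Tg library. Their log2 fold changes were 0.54 ± 0.33, 0.54 ± 0.37 and 0.39 ± 0.20 in that order, and none passed the test. They were 0.23, 0.28 and 0.28 without WT replicate 1, 0.34, 0.24 and 0.28 without Tg replicate 1, and 0.82, 0.87 and 0.56 without WT replicate 2.

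The other fibrillar chains were rare in muscle. Col2a1, the main collagen of cartilage, had the highest log2 fold change of the tested collagen genes, and its level was low: 5.59, 4.62 and 6.08 CPM in Tg (34, 30 and 43 counts) and 1.74, 2.36 and 1.57 CPM in WT (12, 16 and 8 counts). Every Tg library was above every WT library. The log2 fold change was 1.48 ± 0.49 (95% interval 0.44 to 2.52), with an unadjusted p of 0.0084 and an adjusted p of 0.994. It was between 1.37 and 1.63 with any 1 library left out, so this difference did not depend on WT replicate 1. Of 6 cartilage markers, Acan, Matn1, Cnmd and Hapln1 had between 0 and 6 counts in every whole muscle library, and Sox9 and Comp, which other connective tissue cells also express, had log2 fold changes of 0.02 and 0.08. The 6 summed to between 49.2 and 72.5 CPM in Tg and between 45.1 and 69.1 CPM in WT. Col11a1 and Col11a2, cartilage chains that muscle connective tissue also carries, had log2 fold changes of -0.12 and -0.11, Col24a1 had 0.09 and Col27a1 had -0.55. All 4 had overlapping groups.

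Over the 11 fibrillar genes the median log2 fold change was 0.39, with 8 above 0. It was 0.21 without WT replicate 1, 0.24 without Tg replicate 1 and at most 0.54 with any 1 library left out. Over the 18 other collagens tested, neither fibrillar nor of the basement membrane, the median was 0.24, with 13 above 0. That median was 0.009 without WT replicate 1, 0.005 without Tg replicate 1 and 0.44 without WT replicate 2. Over the 6 basement membrane genes tested, the median was 0.088, with 5 above 0. It was 0.057 without WT replicate 1 and 0.34 without Tg replicate 1. The latter is above the fibrillar 0.24 in the same setting, so the order of the groups depended on single libraries.

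**Figure D2:**
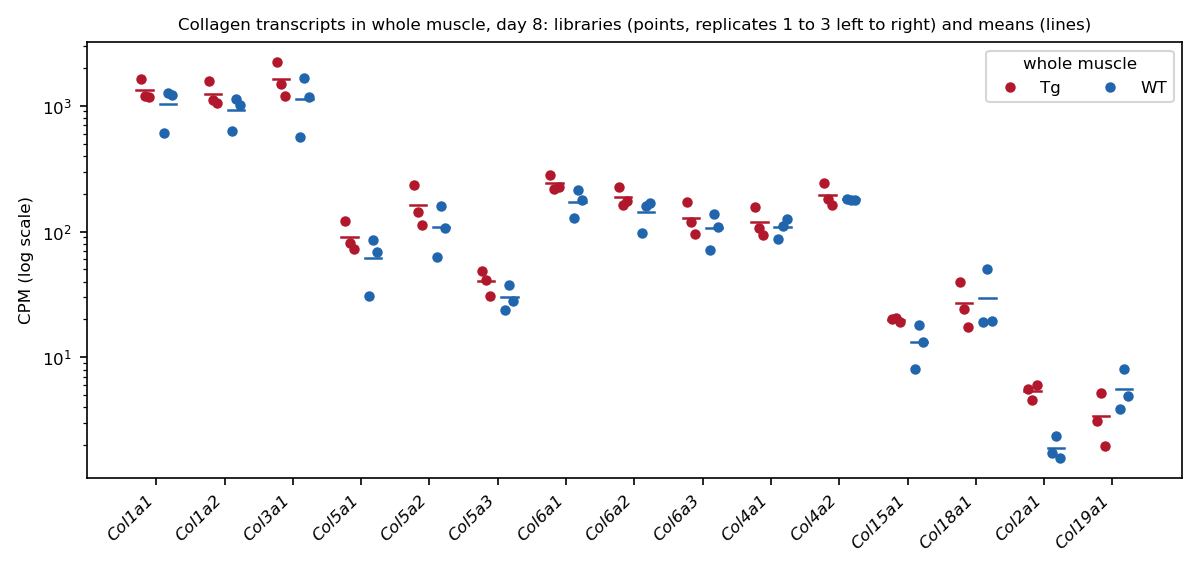
CPM on a log axis for 15 collagen genes in the 6 whole muscle libraries, with Tg left of WT and lines at group means. WT replicate 1 is the lowest point in most fibrillar and type VI genes, whereas Col4a2 barely differs between the 3 WT libraries and the groups of Col2a1 do not overlap.

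Basement membrane collagens made up 0.0370% ± 0.0083 of the library in Tg and 0.0339% ± 0.0034 in WT (SD, n = 3 each), and fibrillar collagens 0.453% ± 0.116 and 0.331% ± 0.126. The mean share in Tg was 1.09 times that in WT for basement membrane and 1.37 times for fibrillar collagens, a difference that was not tested. Both ratios include WT replicate 1. The fibrillar shares of WT replicates 2 and 3 (0.437% and 0.365%) lay within the Tg range. As a share of collagen counts, basement membrane collagens made up 6.38%, 6.65% and 6.60% in Tg and 11.4%, 6.70% and 7.49% in WT. WT replicate 1 had the highest such share. Its fibrillar counts were 0.193% of the library, against 0.365% to 0.585% in the other 5 libraries, and its type IV counts were 0.0274%, against 0.0269% to 0.0404%.

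Col4a1 and Col4a2 encode the main type IV network of muscle. Both genes start 21 bases apart on opposite strands of chromosome 8, so that their promoter windows share 78 bases, and both are shown for that reason.
Col4a1, chr8:11312777-11313076, minus strand: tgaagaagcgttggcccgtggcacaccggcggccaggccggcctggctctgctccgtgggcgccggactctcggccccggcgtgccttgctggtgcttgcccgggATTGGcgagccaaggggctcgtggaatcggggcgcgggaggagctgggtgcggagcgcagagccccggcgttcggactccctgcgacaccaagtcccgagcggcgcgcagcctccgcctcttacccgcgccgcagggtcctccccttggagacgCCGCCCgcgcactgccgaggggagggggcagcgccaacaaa
Col4a2, chr8:11312555-11312854, plus strand: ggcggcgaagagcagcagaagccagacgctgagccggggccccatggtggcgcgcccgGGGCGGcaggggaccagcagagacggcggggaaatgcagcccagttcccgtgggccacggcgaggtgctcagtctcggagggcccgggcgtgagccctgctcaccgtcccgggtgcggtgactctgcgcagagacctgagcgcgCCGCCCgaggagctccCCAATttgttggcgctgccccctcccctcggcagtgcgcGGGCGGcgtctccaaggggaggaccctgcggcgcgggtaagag
Capitals mark the same motifs as above. The Col4a1 window held 1 ATTGG and 1 CCGCCC match, the Col4a2 window held 1 CCAAT match and 3 matches to GGGCGG or CCGCCC, and neither held TATAAA. The annotated genes overlap by 22 bases, where reads of either could be counted for the other because the libraries do not mark strand.

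Col4a1 (chromosome 8, 11198423 to 11312826) had 155.7, 106.5 and 93.7 CPM in Tg and 87.2, 111.6 and 125.8 CPM in WT. Col4a2 (chromosome 8, 11312805 to 11449287) had 241.5, 182.0 and 162.5 CPM in Tg and 181.6, 178.9 and 178.8 CPM in WT. Tg replicate 1 was high for both genes, and WT replicate 1 was not low for Col4a2, unlike for the fibrillar chains. The log2 fold change was 0.10 ± 0.16 for Col4a1 (95% interval -0.25 to 0.44) and 0.08 ± 0.12 for Col4a2 (95% interval -0.18 to 0.34). Both intervals exclude a 2-fold change, and without Tg replicate 1 the values were -0.10 and -0.06.

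The type IV chains of the kidney filter and other specialised membranes were scarce. Col4a3 and Col4a5 had between 1.16 and 5.51 CPM in any whole muscle library, with log2 fold changes of 0.06 and 0.47, and Col4a4 and Col4a6 had too few counts to be tested. Col4a4 and Col4a3 lie head to head 71 bases apart, and Col4a6 and Col4a5 1308 bases apart, as neighbouring pairs like Col4a1 and Col4a2.

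Types XV and XVIII carry sugar chains and lie where basement membranes meet the surrounding matrix. Col15a1 (chromosome 4, 47208161 to 47313167), a chain of muscle and capillary basement membranes, had 20.2, 20.6 and 18.9 CPM in Tg and 8.10, 18.1 and 13.3 CPM in WT. Every Tg library was above every WT library, with WT replicate 2 close to the Tg range. Its log2 fold change was 0.58 ± 0.28 (95% interval -0.0089 to 1.16; adjusted p = 0.994), and without WT replicate 1 it was 0.34. Col18a1 (chromosome 10, 77052178 to 77166548), the precursor of the vessel inhibitor endostatin, had 39.8, 24 and 17.5 CPM in Tg and 19.1, 50.4 and 19.4 CPM in WT. Here a WT library was the highest and a Tg library the lowest, and the log2 fold change was -0.17 ± 0.36 (95% interval -0.94 to 0.61). Without WT replicate 2 it was 0.41, so its direction depended on that library.

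Type VI collagen, whose chains are mutated in Bethlem and Ullrich muscle disease, included the collagen gene with the lowest unadjusted p. Col6a1 (chromosome 10, 76708792 to 76726168) had 281.0, 218.5 and 225.6 CPM in Tg and 127.3, 212.0 and 179.2 CPM in WT. All 3 Tg libraries were above all 3 WT libraries, the nearest being WT replicate 2. Its log2 fold change was 0.46 ± 0.14 (95% interval 0.16 to 0.75; unadjusted p = 0.0050; adjusted p = 0.980), and it was 0.30 without WT replicate 1. Such separation was not rare: 3 of the 35 collagen genes (Col2a1, Col6a1 and Col15a1) had every Tg library above every WT library, against 5.77% of all genes tested, and 1 (Col7a1) had every Tg library below, against 3.86%.

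Col6a2 (chromosome 10, 76595762 to 76623630), which lies 85161 bases from Col6a1 on the same strand, had 226.1, 161.8 and 173.6 CPM in Tg and 98.1, 159.5 and 167.4 CPM in WT. Col6a3 (chromosome 1, 90765923 to 90843971), the longest of the main type VI chains, had 170.2, 118.5 and 96.3 CPM in Tg and 71.0, 138.5 and 108.7 CPM in WT. WT replicate 1 was again the lowest library for both genes, and at least 1 other WT library lay within the Tg range. The log2 fold changes were 0.37 ± 0.16 and 0.24 ± 0.21 in that order, and without WT replicate 1 they were 0.19 and 0.04. Without Tg replicate 1 the value of Col6a3 was 0.03, and without WT replicate 2 it was 0.45. Of the later type VI genes, Col6a6 ranged from 0.62 to 8.71 CPM within Tg alone, and Col6a4 and Col6a5 were not tested for lack of counts.

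Collagens that coat fibrils gave no call. Col12a1, which bridges fibrils under load, averaged 38.4 ± 21.6 CPM in Tg and 27.3 ± 8.2 in WT, and Col14a1, its close relative, averaged 52.5 ± 20.02 and 37.1 ± 20.6. Their log2 fold changes were 0.45 ± 0.32 and 0.47 ± 0.35. Col22a1, the collagen of the junction between muscle and tendon, averaged 23.4 ± 4.4 CPM in Tg and 22.4 ± 5.5 in WT, a log2 fold change of 0.04 ± 0.23 (95% interval -0.45 to 0.52). Col16a1 averaged 22.4 ± 2.8 CPM in Tg and 23.5 ± 9.4 in WT, a log2 fold change of -0.09. Col19a1, a rare member of this family, had the lowest log2 fold change of the tested collagen genes. It had 3.12, 5.23 and 1.98 CPM in Tg and 3.91, 8.11 and 4.91 CPM in WT, which overlapped, with a log2 fold change of -0.73 ± 0.49 (95% interval -1.77 to 0.31). Leaving out 1 library moved it between -1.19 and -0.41.

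Among the network, anchoring and transmembrane types, Col8a1, a short chain of vessel walls, averaged 42.6 ± 6.5 CPM in Tg and 31.6 ± 10.9 in WT. Col7a1, the anchoring fibril chain of skin, had 9.87, 11.7 and 10.3 CPM in Tg and 11.7, 12.2 and 16.9 CPM in WT. All 3 Tg libraries were below all 3 WT libraries, by a margin of less than 1 CPM between the nearest pair, and the log2 fold change was -0.38 ± 0.28 (95% interval -0.98 to 0.22). The remaining tested genes (Col8a2, Col9a1, Col13a1, Col20a1, Col23a1, Col26a1 and Col28a1) had log2 fold changes between -0.65 and 0.71 and group means below 7 CPM. The 9 collagen genes that were not tested (Col4a4, Col4a6, Col6a4, Col6a5, Col9a2, Col9a3, Col10a1, Col17a1 and Col25a1) reached at most 2.16 CPM in any whole muscle library.

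Ratios between chains of the same collagen type were compared per kilobase within each library, since that cancels the overall collagen level. Col1a1 over Col1a2 was 0.933, 0.975 and 1.01 in Tg and 0.871, 1.00 and 1.09 in WT. The genotype means were 0.972 ± 0.038 and 0.987 ± 0.110, so the ratio differed by less than its spread, while the absolute level of both chains varied more than 2-fold between libraries. The level of this ratio depends on the transcript length used: with the union of all annotated exons in place of the principal transcript, the means were 2.04 in Tg and 2.07 in WT, because the exon union of Col1a2 is 12426 bases and its principal transcript 5348.

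Col4a1 over Col4a2 averaged 0.587 ± 0.036 in Tg and 0.588 ± 0.110 in WT, Col5a1 over Col5a2 averaged 0.453 ± 0.051 and 0.437 ± 0.064, and Col6a1 over Col6a2 averaged 1.25 ± 0.05 and 1.19 ± 0.14. In each of these pairs the genotypes overlapped. With exon union lengths Col6a1 over Col6a2 was 2.47 in Tg and 2.34 in WT. Col3a1 over Col1a1 averaged 1.29 ± 0.19 in Tg and 1.15 ± 0.24 in WT, with the highest value in Tg replicate 1 (1.45) and the lowest in WT replicate 1 (0.989). With exon union lengths it was 0.808 in Tg and 0.720 in WT, so which of the chains was higher per kilobase depends on the length used. Col4a1 over Col1a1, which sets basement membrane against fibrils, was 0.0860, 0.0795 and 0.0720 in Tg and 0.130, 0.0799 and 0.0925 in WT. WT replicate 1 had the highest value of the 6.

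**Figure D3:**
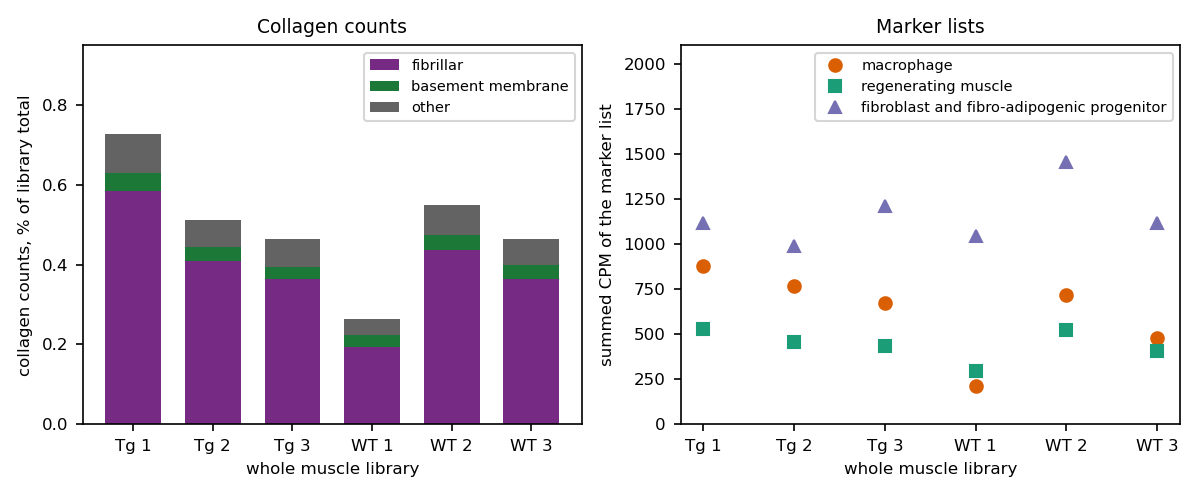
Left, collagen counts as a percentage of the library total (bars, split by collagen group) in each whole muscle library, and right, summed CPM of 3 marker lists in the same libraries. WT replicate 1 has the shortest bar (0.265%) and also the lowest macrophage sum (209.6 CPM).

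Some cell type markers were also lowest in WT replicate 1. The 9 macrophage markers summed to 878.9, 765.2 and 673.9 CPM in Tg and 209.6, 717.0 and 480.0 CPM in WT. All 9 had a log2 fold change above 0, with a median of 0.76 (0.38 and 8 of 9 without WT replicate 1), and 0 were called. The 7 markers of regenerating muscle summed to 530.1, 456.8 and 432.3 CPM in Tg and 294.7, 519.4 and 403.3 CPM in WT. Of these 7, 6 had a log2 fold change above 0, with a median of 0.42 (0.22 and 5 of 7 without WT replicate 1), and 0 were called. The 9 markers of fibroblasts and fibro-adipogenic progenitors, the main collagen producers, summed to 1116, 990.2 and 1209 CPM in Tg and 1041, 1455 and 1114 CPM in WT, with 3 of 8 tested above 0 and 0 called. Gsn made up most of that sum, so it says little about the other members. Dpt had a log2 fold change of 0.53, Pdgfra 0.46 and Cd34 0.02. The 5 tested members below 0, Gsn among them, lay between -2.02 (Dpp4) and -0.13 (Ly6a). Adult fibre markers summed to between 158200 and 173000 CPM in the 6 libraries. The endothelial (6 tested), pericyte (5), Schwann (4), tendon (5), cartilage (2), adipocyte (4) and T cell (1) lists had 0 calls, with medians between -0.57 and 0.31. The most abundant uncalled gene of each list had a log2 fold change of 0.76 (Lyz2, macrophage), 0.02 (Myh3, regenerating muscle), -0.05 (Acta1, adult fibre) and -0.20 (Gsn), and between -0.25 and 0.39 in the lists without calls just named (Pecam1, Rgs5, Mbp, Thbs4, Comp, Fabp4 and Cd3e). The part that cell makeup plays in the collagen values was not tested.

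Genes that make, process or bind collagen gave 0 calls as well. Over all genes tested only 0.0323% were called, so 0 calls sets neither these lists nor the marker lists apart. For collagen synthesis and folding, 0 of 19 tested genes were called and the median log2 fold change was 0.14. The most abundant was P4hb, a subunit of the enzyme that hydroxylates proline in collagen, at 331.3 ± 16.9 CPM in Tg and 323.0 ± 41.7 in WT (log2 fold change 0.01 ± 0.10). For procollagen processing and cross-linking, 0 of 10 were called and the median was 0.08. Pcolce, which speeds the trimming of procollagen, averaged 100.4 ± 19.1 CPM in Tg and 81.1 ± 18 in WT (0.28 ± 0.16). For breakdown, 0 of 12 were called and the median was 0.26. Mmp2, a gelatin-cleaving protease, averaged 221.8 ± 56.6 CPM in Tg and 155.0 ± 70.1 in WT (0.49 ± 0.30).

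The neighbours of collagen in the matrix gave a like picture. For fibril-associated proteins, 0 of 21 were called and the median was 0.18. Sparc, a collagen-binding protein, averaged 897.0 ± 142.2 CPM in Tg and 746.4 ± 161.7 in WT (0.24 ± 0.12). For laminins and other basement membrane proteins, 0 of 12 were called and the median was 0.14, with Hspg2 (perlecan) at 140.8 ± 24.6 CPM in Tg and 127.5 ± 23.8 in WT. For collagen receptors, 0 of 7 were called and the median was 0.33, with Itgb1, the beta chain shared by the collagen-binding integrins, at 168.8 ± 11.1 CPM in Tg and 150.7 ± 22.8 in WT. For ligands and targets of TGF-beta, a growth factor that drives collagen transcription, 0 of 14 were called and the median was 0.17. Acta2, smooth muscle actin, averaged 128.9 ± 12.7 CPM in Tg and 97.6 ± 15.4 in WT, a log2 fold change of 0.38 with an unadjusted p of 0.011. Without WT replicate 1 the medians of these 7 lists lay between -0.23 and 0.18.

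Sorted Tregs served as a background that should hold little collagen. Collagen transcripts made up between 0.0046% and 0.0060% of the 10 Treg libraries, 120 to 449 counts each, against at least 0.265% of each whole muscle library. Col1a2 and Col3a1 had 0 or 1 count in every Treg library, Col24a1 had 0 in all 10, and Col1a1 had between 0 and 38 counts, at most 8.98 CPM. A count of 0 allows up to 3 counts, which is 1.51 CPM in the shallowest Treg library and covers counting error only. All 6 whole muscle libraries were above all 10 Treg libraries for 25 of the 44 genes, 18 genes overlapped, and Col9a3 was lower in whole muscle. The same counts were not made over all genes, so they do not set collagens apart from other genes. Col9a3 shares 234 exon bases with Tcfl5 and Col10a1 shares 18 with Nt5dc1. Other collagen genes also share exon bases with neighbours, such as Col4a3 (563), Col5a1 (212) and Col3a1 (141). Reads in such stretches could raise or lower the counts, since the rule for counting them is not stated. Treg libraries differ from whole muscle in tissue preparation, day and cell content at once.

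Col18a1 was the exception among abundant collagens, because WT muscle Tregs reached the lower part of its whole muscle range of 17.5 to 50.4 CPM. It had 7.59 and 17.6 CPM in Tg muscle Tregs (22 and 78 counts) and 24.2 and 23.3 CPM in WT muscle Tregs (112 and 212 counts). Spleen Tregs had less: 2.40 and 1.89 CPM in injured Tg, 5.20 and 3.51 CPM in uninjured Tg, and 1.51 and 0.222 CPM in WT. Every muscle Treg library was above every spleen Treg library. RefSeq lists 2 starts for this gene, and the counts per gene do not say which was used.
Col18a1, first start, chr10:77166481-77166780, minus strand: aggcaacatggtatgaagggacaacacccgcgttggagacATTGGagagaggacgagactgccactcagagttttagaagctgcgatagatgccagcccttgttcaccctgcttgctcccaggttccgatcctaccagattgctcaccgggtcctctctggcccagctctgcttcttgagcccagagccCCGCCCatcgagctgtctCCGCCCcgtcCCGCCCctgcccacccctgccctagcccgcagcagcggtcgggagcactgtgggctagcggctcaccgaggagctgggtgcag
Col18a1, second start, chr10:77113656-77113955, minus strand: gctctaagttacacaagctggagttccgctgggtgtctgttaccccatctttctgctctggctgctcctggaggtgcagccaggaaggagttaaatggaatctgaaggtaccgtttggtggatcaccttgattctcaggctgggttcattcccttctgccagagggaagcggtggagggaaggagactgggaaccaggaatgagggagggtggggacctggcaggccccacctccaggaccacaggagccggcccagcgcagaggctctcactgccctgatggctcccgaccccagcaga
With the same motifs in capitals, the first window held 1 ATTGG and 3 CCGCCC matches, and the second window held none of the 3 motifs.

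The tissue difference was tested in an edgeR fit of the 10 Treg libraries that was added after the Col18a1 counts had been seen. In WT, Col18a1 was higher in muscle than in spleen Tregs by 5.28 ± 0.75 on the log2 scale (95% interval 3.68 to 6.88; adjusted p = 0.00023). WT spleen Tregs held only 3 counts and 1 count of it, so the size of the fold is uncertain: it was 4.14 without WT spleen replicate 2 and 6.75 without WT spleen replicate 1, with an adjusted p of 0.0095 and 0.00063. It was the only one of the 13 collagen genes tested that was called, against 16.2% of all 13188 genes (9.39% higher and 6.86% lower). In Tg, muscle against injured spleen, Col18a1 was higher by 2.75 ± 0.61 (95% interval 1.45 to 4.05; adjusted p = 0.011), again the only call of 13, against 7.38% of all genes (4.83% higher and 2.55% lower).

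The Tg call was lost without Tg muscle Treg replicate 2 (2.00, adjusted p = 0.152) and without either injured Tg spleen library (2.93, adjusted p = 0.0822, and 2.60, adjusted p = 0.123), each time with the lone library assumed to vary like the other groups. The tissue effect in Tg minus that in WT was -2.53 ± 1.00 (95% interval -4.67 to -0.39), with an unadjusted p of 0.024 and an adjusted p of 0.543, against 0.136% of genes called (0.0531% higher and 0.0834% lower). It was -1.38 without WT spleen replicate 2 and -3.997 without WT spleen replicate 1. A difference between genotypes was therefore not shown, and the sort gate differed between them. With library totals alone as the scale, the median of all genes moved to -0.23 in both comparisons, from -0.04, and the calls in WT were 841 higher and 1358 lower in place of 1238 and 905. In Tg they were 434 higher and 681 lower in place of 637 and 336. Col18a1 was called on that scale too, at 5.10 in WT and 2.56 in Tg.

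Some defining markers of other muscle cells were at or near 0 beside the Col18a1 signal, and others were not. Pdgfra and Dpt, of fibro-adipogenic progenitors, had 0 counts in all 4 muscle Treg libraries, and so did Cdh5, of endothelium. Kdr, Flt1, Tek and Emcn, other endothelial genes, had at most 2, 3, 1 and 8 counts there. Pecam1, an endothelial marker that leukocytes can also carry, had 439 and 774 counts in Tg muscle Tregs and 798 and 1491 counts in WT muscle Tregs. It made up nearly all of the endothelial list, which summed to between 151.7 and 175.5 CPM in muscle Tregs and between 180.1 and 282.5 CPM in spleen Tregs. The 9 macrophage markers summed to between 16.2 and 36.9 CPM in muscle Tregs and between 58.2 and 149.2 CPM in spleen Tregs. The fibroblast list as a whole summed to between 1364 and 1827 CPM in muscle Tregs and between 658.3 and 1020 CPM in spleen Tregs, and it includes Ly6a and Thy1, which T cells also express. The Schwann list, most of it Mbp, summed to between 114.5 and 171.9 CPM in muscle Tregs and between 139.4 and 183.2 CPM in spleen Tregs. The adult fibre list, most of it Ttn, summed to between 28.4 and 159.3 CPM in muscle Tregs and between 72.5 and 272.8 CPM in spleen Tregs, while Acta1, its most abundant gene in whole muscle, had at most 2 counts in any Treg library. The pericyte, tendon, cartilage, adipocyte and regenerating muscle lists each summed to at most 3.15 CPM in muscle Tregs. The part that other cells play in the Col18a1 values was not tested. Foxp3, the defining Treg transcription factor, had between 2812 and 17714 counts in the 10 libraries.

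**Figure D4:**
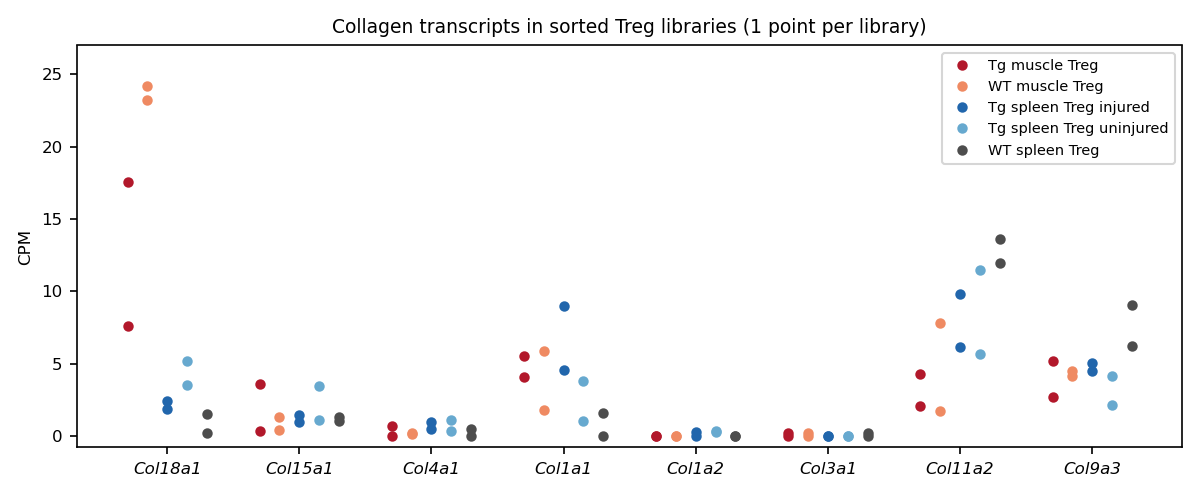
CPM of 8 collagen genes in the 10 sorted Treg libraries, 1 point per library, with muscle Tregs left of spleen Tregs. Col18a1 reaches 24.2 CPM in muscle Tregs and at most 5.20 CPM in spleen Tregs, whereas Col1a2 and Col3a1 stay at 0 or 1 count.

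None of the other 12 collagen genes tested was called between muscle and spleen Tregs, and the remaining 31 of 44 had too few counts to be tested. One of those, Col8a2, had 0 and 0.901 CPM in Tg muscle Tregs against 0 in both injured Tg spleen libraries, and 1.30 and 3.40 CPM in WT muscle Tregs against 1.01 and 0 in WT spleen. Col15a1, the nearest relative of Col18a1, had 0.345 and 3.61 CPM in Tg muscle Tregs and 0.432 and 1.32 in WT muscle Tregs. These values lay within the range of 0.958 to 3.47 CPM seen in spleen Tregs or just outside it. Col11a2, a cartilage chain, had 2.07 and 4.28 CPM in Tg muscle Tregs against 9.82 and 6.15 in injured Tg spleen, and 1.73 and 7.79 CPM in WT muscle Tregs against 13.6 and 11.99 in WT spleen. It was not called in either comparison (log2 fold change -1.09 ± 0.71 in Tg and -1.15 ± 0.67 in WT), but without WT muscle Treg replicate 2 it was called in WT (-2.71, adjusted p = 0.035). Col27a1, a fibrillar chain, had 1.30 and 0 CPM in WT muscle Tregs against 5.54 and 3.78 in WT spleen, and in WT it was called by limma-voom (adjusted p = 0.032) and without WT muscle Treg replicate 1 (adjusted p = 0.015). Col1a1 differed by -0.31 ± 0.87 in Tg and 2.07 ± 1.02 in WT, neither of which passed the test.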

How the data were processed

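The authors deposited 1 table of whole-number read counts per gene symbol for 16 mouse libraries. Per the submitters' processing notes, reads were aligned with STAR 2.5.4 to mm10 and counted with featureCounts. Neither the annotation nor the strand setting used for counting is stated there. Per the labels, RNA was primed with oligo(dT), amplified by PCR and fragmented by transposon, which marks no strand, so reads of overlapping genes cannot be told apart.

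Levels are CPM by library total. Fold changes come from edgeR 4.0.16 in R 4.3.3 (low counts filtered with filterByExpr, TMM scaling, robust glmQLFit, glmQLFTest, Benjamini-Hochberg over all genes tested, adjusted p under 0.05), in a fit of the 6 whole muscle libraries and another of the 10 Treg libraries. Standard errors are the log2 fold change over the root of the F statistic. Lengths are those of the longest principal transcript of GENCODE for GRCm38. The procedure was tested on simulated data. Depth limits rare genes: a count of 0 allows up to 3 counts, 0.424 to 0.589 CPM in whole muscle.

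Collagen genes and lists were chosen with earlier results of these data known. Genes named are the chains of types I, III, V, VI (a1 to a3) and IV (a1, a2), Col15a1, Col18a1, the highest and lowest log2 fold change, and of each other list the uncalled gene with the highest mean CPM; other collagen genes were named after their values were seen. Alternatives were relative log expression scaling, library totals alone, removal of the 20 most abundant genes, no filter or 5 CPM in 3 libraries, DESeq2 1.42.0, limma-voom (limma 3.58.1), no robust dispersion, a replicate block and leaving out each library. The Treg fit, its alternatives and the exon union lengths were added after seeing the data. The main fits did not pair libraries by replicate number, since the labels do not say that same-numbered libraries belong together.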

Additional observations from a re-analysis of the deposited data

How the results depend on the processing

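No collagen gene was called between Tg and WT whole muscle under any of 15 alternatives. All genes called numbered 4 as reported, 11 without a low count filter, 2 with a replicate block and 3 to 4 with a library left out. Same-numbered libraries did not deviate together (correlations of -0.0245, -0.00137 and -0.00873). The labels do not say whether such libraries belong together, and the replicate block changed no collagen call. Leaving out 1 library moved the median log2 fold change of basement membrane collagens between 0.057 and 0.34 (0.34 without Tg replicate 1), and reversed Col4a1 (-0.01 without WT replicate 1, -0.10 without Tg replicate 1), Col4a2 (-0.057 without Tg replicate 1) and Col18a1 (0.41 without WT replicate 2, 0.06 without Tg replicate 3). Leave-one-out ranges were -0.10 to 0.23, -0.057 to 0.18 and -0.50 to 0.41 for these genes. With the 20 most abundant genes left out of the total, collagen shares were 0.917% in Tg and 0.691% in WT. Type IV alone gave a basement membrane share of 0.0323% in Tg and 0.0296% in WT, with Tg 1.09 times WT as before.

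In Tregs of WT, 2143 genes were called between muscle and spleen, 887 to 2768 with a library left out, 1349 without muscle replicate 2 and 887 without spleen replicate 2. Collagen calls numbered 1, 2 by limma-voom (Col27a1 added) and 1 to 2 with a library left out (Col27a1 added without muscle replicate 1, Col11a2 without muscle replicate 2). In Tregs of Tg, 973 genes were called, 452 to 640 with a library left out and 1303 without a filter, and collagen calls numbered 0 to 1. Exon union lengths changed the level of chain ratios by the same factor in both genotypes. That follows from the calculation, since a gene has the same length in every library, and is no check of the ratios. With 3 or 2 libraries per group, small differences were not detectable at this depth and spread.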

Other observations

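Of the lists beside the collagens, 3 uncalled genes had a lower unadjusted p than any collagen: Dpp4, Itgam and Timp4. Dpp4, a surface peptidase in the fibroblast list, had 1.64, 4 and 1.13 CPM in Tg whole muscle and 7.96, 14.0 and 5.30 CPM in WT whole muscle (log2 fold change -2.02 ± 0.52; unadjusted p = 0.0013, adjusted p = 0.802 by edgeR). Itgam, an integrin chain in the macrophage list, had 12.3, 11.8 and 7.92 CPM in Tg and 1.74, 5.75 and 1.96 CPM in WT (log2 fold change 1.72 ± 0.45; unadjusted p = 0.0015, adjusted p = 0.802). In neither gene did the groups overlap, with Tg below WT for Dpp4 and above WT for Itgam. Timp4, an inhibitor of matrix metalloproteinases in the collagen breakdown list, had 31.9, 24.6 and 37.2 CPM in Tg whole muscle and 72.5, 42.0 and 47.7 CPM in WT whole muscle. All 3 Tg libraries were below all 3 WT libraries, and the log2 fold change was -0.84 ± 0.22 (unadjusted p = 0.0019, adjusted p = 0.859 by edgeR), so it did not pass the test. Ctsk, a collagen-cleaving protease, had 115.4, 102.9 and 98.8 CPM in Tg and 15.6, 90.1 and 78.5 CPM in WT, and its 3 Tg libraries were above the WT libraries. Its log2 fold change was 0.78 ± 0.64 (95% interval -0.93 to 2.48; unadjusted p = 0.284 by edgeR), with WT replicate 1 far below the other WT libraries. Of all genes tested, 5.77% had every Tg library above every WT library and 3.86% had every Tg library below. Dpp4, Itgam, Timp4 and Ctsk were all picked after their values were seen.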
